A study of Mus musculus with 474 samples.

Results

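Gastrocnemius muscle of Diversity Outbred mice was compared between 50 animals with the highest and 50 with the lowest Hsph1 RNA, which together make up 21.1% of the animals of the series. Hsph1 encodes Hsp110, a member of the extended Hsp70 family that exchanges nucleotide on Hsp70 and helps to dissolve protein aggregates, and its RNA is one of the known targets of the heat shock response. The libraries were chosen by their own Hsph1 value. Within each of 10 groups formed from sex and from a number in the label that was read as the outbred generation (17, 18, 19, 21 or 23), libraries were ranked by the deposited Hsph1 score, and the 5 highest were called Hsph1-high and the 5 lowest Hsph1-low. Each set therefore holds 25 females and 25 males, 5 of each sex and generation, and the other 78.9% of the libraries lie outside both sets. The groups hold 45 to 50 libraries each. The study's text does not name every one of these numbers as a generation, so that reading is an assumption.

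Diversity Outbred mice descend from 8 inbred founder strains, so that no animal has quite the same genome as another. All animals, in both sets, were fed a high-fat, high-sugar diet labelled as 45% fat, and no group on another diet was compared. Each animal gave 1 library, so that the values below vary between animals and the p-values refer to that spread. The labels name no other treatment. The sets are both ends of natural variation in a single RNA, not a treatment and its control, and the labels give no age, time of day or body temperature for any animal.

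The heat shock response is a conserved program by which cells raise the RNAs of chaperones, the proteins that fold other proteins and keep them from clumping. Its main regulator, the transcription factor Hsf1, is held inactive by chaperones at rest, forms trimers when unfolded proteins accumulate, and binds repeats of the triplet GAA and its complement TTC, called heat shock elements. In working muscle the same program is known to respond to exercise, heat and redox stress, and its chaperones help to fold myosin and to clear damaged filament proteins.

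The stretches of sequence below show these repeats at the genes that define or lead the comparison. Promoter windows from RefSeq (mouse build GRCm38.p6, 250 bases before to 50 bases after each annotated start) were searched for 2 alternating units with a spacing of 2 bases (GAANNTTC or TTCNNGAA) and for 3 such units (GAANNTTCNNGAA or TTCNNGAANNTTC). Both motifs read the same on either strand when taken as a pair, and each 3-unit match holds overlapping 2-unit matches. Of all 32851 windows, 15.1% held a 2-unit match and 0.603% a 3-unit match. Each line gives 30 bases, 5′ to 3′ on the strand of the gene, with every matched motif in capitals.
Hsph1: agtaaaatgctgcagaTTCTGGAAAGTTCt
Chordc1: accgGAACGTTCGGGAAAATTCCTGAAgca
Hspd1: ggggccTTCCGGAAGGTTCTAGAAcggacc
Hspa1a: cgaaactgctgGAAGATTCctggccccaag
Hspa1b: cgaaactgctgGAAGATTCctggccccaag
Hspb1: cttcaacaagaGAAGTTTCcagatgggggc
Dnaja1: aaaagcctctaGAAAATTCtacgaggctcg
The Hsph1 site (chr5:149636287-149636316, minus strand) lies in its first exon and 5′ UTR, with its first capital at position 37 from the upstream RefSeq start, and holds a full 3-unit match. The Chordc1 site (chr9:18292259-18292288, plus strand) crosses a RefSeq start and is the longest run, with 23 bases of overlapping units. GENCODE M21 places it in an exon and UTR of Chordc1, and the gene start in the deposited annotation lies upstream, at 18292125. The Hspd1 site (chr1:55088053-55088082, minus strand) stands between Hspd1 and Hspe1, which point away from each other, and GENCODE M21 also places it in the 5′ UTR of a longer Hspd1 transcript. The sites of Hspa1a (chr17:34972242-34972271, minus strand) and Hspa1b (chr17:34959324-34959353, minus strand) are intergenic and read the same over all 30 bases. Their first capital lies 104 bases before each RefSeq start. The Hspb1 site (chr5:135887791-135887820, plus strand) is intergenic too, and the Dnaja1 site (chr4:40722333-40722362, plus strand) falls in an exon of a noncoding Dnaja1 transcript and of Gm6297 on the other strand. The windows of Dnajb1, Hspa4l, Stip1, Ahsa1, P4ha1 and Cirbp held no match, which says only that these letters are absent from those 300 bases.

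Hsph1 (ENSMUSG00000029657, chr5:149614287-149636376 on the minus strand of GRCm38) gives the values that chose the sets. The Hsph1 score is a variance-stabilised value close to log2, and it averaged 13.4 ± 0.260 (SD) in the high set and 12.1 ± 0.151 in the low set. In CPM (the count for every 1000000 counts of the scaled library), Hsph1 ranged from 42.4 to 62.8 in the low set, with a median of 55.5, and from 96.5 to 241.7 in the high set, with a median of 127.7. The libraries outside both sets ranged from 55.2 to 146.0 CPM, with a median of 83.8. Across the 10 groups the last library inside the high set scored between 12.95 and 13.54 and the first outside it was lower by 0.0054 to 0.079, while the last inside the low set scored between 12.04 and 12.34 and the first outside it was higher by 0.00011 to 0.17. The sets were therefore ends of a distribution that mostly ran on without a break, and the widest step, 0.17 below the rest of the females of generation 18, exceeded the SD of the low set. The mean difference between the sets was 1.16 units in females and 1.39 in males. These values were fixed by the choice of libraries and carry no test.

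**Figure D1:**
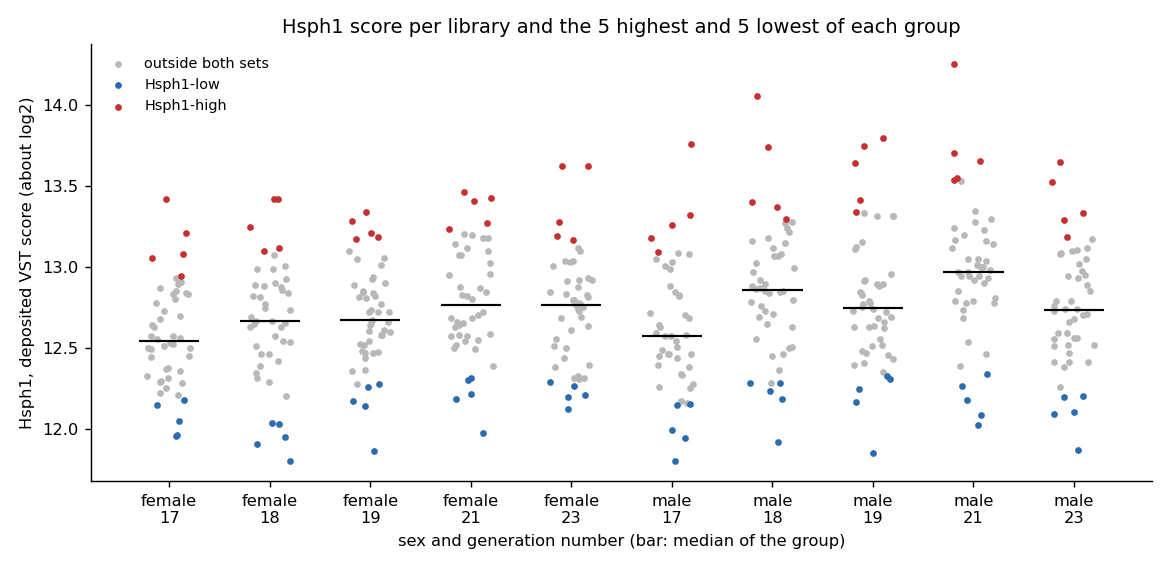
Each point is the deposited Hsph1 score of 1 library (vertical axis, about log2) in the 10 groups of sex and generation number (horizontal axis), red for the 5 highest, blue for the 5 lowest and grey for the rest, with a bar at the group median. The coloured points mostly join the grey ones without a break, and the highest score of all, 14.3, belongs to a male of generation 21.

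The libraries of both sets were deep. The total count ranged from 51.3 to 118.5 M (units of 1000000 counts of read ends) in the high set and from 56.2 to 153.7 M in the low set. Means were 79.9 ± 13.4 M and 84.7 ± 15.7 M, and the difference of -4.79 M did not pass a 2-sided permutation test within groups (p = 0.101). Mitochondrially encoded genes took 10.1% ± 1.82 of the counts in the high set and 10.6% ± 1.78 in the low set (difference of -0.468 percentage points, permutation p = 0.182), while the medians differed by -0.80 percentage points (permutation p = 0.0412). Library numbers in the titles were divided here into 5 consecutive stretches. These held 9, 7, 14, 12 and 8 high libraries against 8, 8, 12, 9 and 13 low ones. A gap in the numbers follows the first stretch, whereas the later stretches run on from each other without a gap. The limits between the later stretches were therefore set here and are not marked in the titles. Whether the stretches match batches of library preparation or sequencing was not tested. In 5 libraries of the series the sex-linked RNAs went against the label, of which 1 stood in the high set, 1 in the low set and 3 outside both. Counts of calls without them are given below for the sets, the slope and the sex interaction. As tissue RNA was measured, a lower level may stand for fewer cells of a type or for less RNA per cell, and the data cannot tell these apart.

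The transcriptomes of the sets differed widely and mostly by small amounts. A quasi-likelihood fit in edgeR, in which the group was a covariate and p-values were adjusted over 18526 genes (Hsph1 left out), called 2294 genes at an adjusted p under 0.05, which is 12.4% of those tested. Of these, 1203 (6.49% of those tested) were higher and 1091 (5.89%) lower in the high set. The median called gene differed by 0.19 on the log2 scale, and 193 genes differed by at least 1.5-fold, 113 higher and 80 lower. Scaling by the total count alone gave 865 higher and 1197 lower and moved the median of all genes from -0.0038 to -0.017, so that the split between directions rests on the scaling. Without the libraries of doubtful sex label the call count was 2149. In 1556 of the called genes at least 9 of the 10 groups shared the direction, and in 620 all 10 did.

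The clearest separation was found in chaperone genes. In 20 genes at least 30 of the 50 high libraries lay above every one of the 50 low libraries, and 14 of these belong to the protein folding lists used here. For Stip1 and P4ha1 this held for 47 high libraries each, for Hspa4l for 46 and for Hsp90aa1 for 45. The other 6 of the 20 were P4ha1 and Serpinh1, which serve collagen folding, and Jmjd6, Slc35e2, Gm15542 and Slfn5os. Serpinh1, Jmjd6, Slc35e2 and Slfn5os were singled out after their values were seen. A total of 8 lists of folding genes were summed. They were Hsp70 and Hsp110, J-domain proteins, Hsp90 and its co-chaperones, Hsp70 exchange factors, small heat shock proteins, TRiC, and mitochondrial and endoplasmic reticulum chaperones. Prefoldin (0 of 6 higher, median -0.008) and the heat shock factors (1 of 4 higher, median 0.012) were kept apart and are not in the sum. The 8 lists, with 96 tested members in all, held 56 that were higher and 4 that were lower, beside 6.49% and 5.89% of all tested genes, and their median log2 difference was 0.13 against -0.0038 over all tested genes.

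Inducible Hsp70 showed the largest rise of any chaperone. Hspa1b, a stress-inducible Hsp70 that holds unfolded chains for refolding, ranged from 5.53 to 55.6 CPM in the low set, with a median of 16.1, and from 7.75 to 868.6 CPM in the high set, with a median of 115.8. The lowest high libraries overlapped the low set, whereas 30 of 50 exceeded all of it, and the fitted level was 7.83-fold higher (log2 difference 2.97 ± 0.25, adjusted p = 1.2e-16). Hspa1a, its neighbour on chromosome 17, ranged from 5.77 to 65.6 CPM in the low set, with a median of 15.1, and from 12.5 to 610.4 CPM in the high set, with a median of 79.6 (log2 difference 2.68 ± 0.24, adjusted p = 2e-15). Both genes are near-identical copies, so that the share of reads given to each is uncertain and only their common rise is read here. Hspa1l, which lies beside them and is known mainly from the testis, had medians of 15.5 CPM in the low set and 18.5 CPM in the high set (log2 difference 0.27 ± 0.082, adjusted p = 0.018).

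The constitutive members of the family had smaller differences. Hspa8, the abundant Hsp70 of unstressed cells, ranged from 759.04 to 1306 CPM in the low set, with a median of 1033, and from 837.8 to 1987 CPM in the high set, with a median of 1435, and 33 of 50 high libraries lay above the low set (log2 difference 0.53 ± 0.045, adjusted p = 9.6e-17). Hspa4l and Hspa4 are, like Hsph1, Hsp110-type exchange factors. Hspa4l ranged from 6.01 to 11.6 CPM in the low set, with a median of 8.73, and from 8.86 to 41.6 CPM in the high set, with a median of 15.4 (log2 difference 0.93 ± 0.067, adjusted p = 9.3e-21), so that the sets overlapped only slightly. Hspa4 differed less, with medians of 109.3 CPM in the low set and 125.2 CPM in the high set (log2 difference 0.22 ± 0.026, adjusted p = 1.2e-10), a call lost with ranking by Dnajb1 (0.042, adjusted p = 0.43). Hspa12a and Hspa12b, distant and atypical relatives, were lower in the high set, by log2 differences of -0.22 ± 0.054 (adjusted p = 0.0022) and -0.13 ± 0.044 (adjusted p = 0.035). Hspa2 (log2 difference -0.15 ± 0.10, adjusted p = 0.36) and Hspa13 (0.10 ± 0.049, adjusted p = 0.17) did not pass the test, which left 6 higher and 2 lower of 10 tested members, beside 6.49% and 5.89% of all tested genes, with a median of 0.25.

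**Figure D2:**
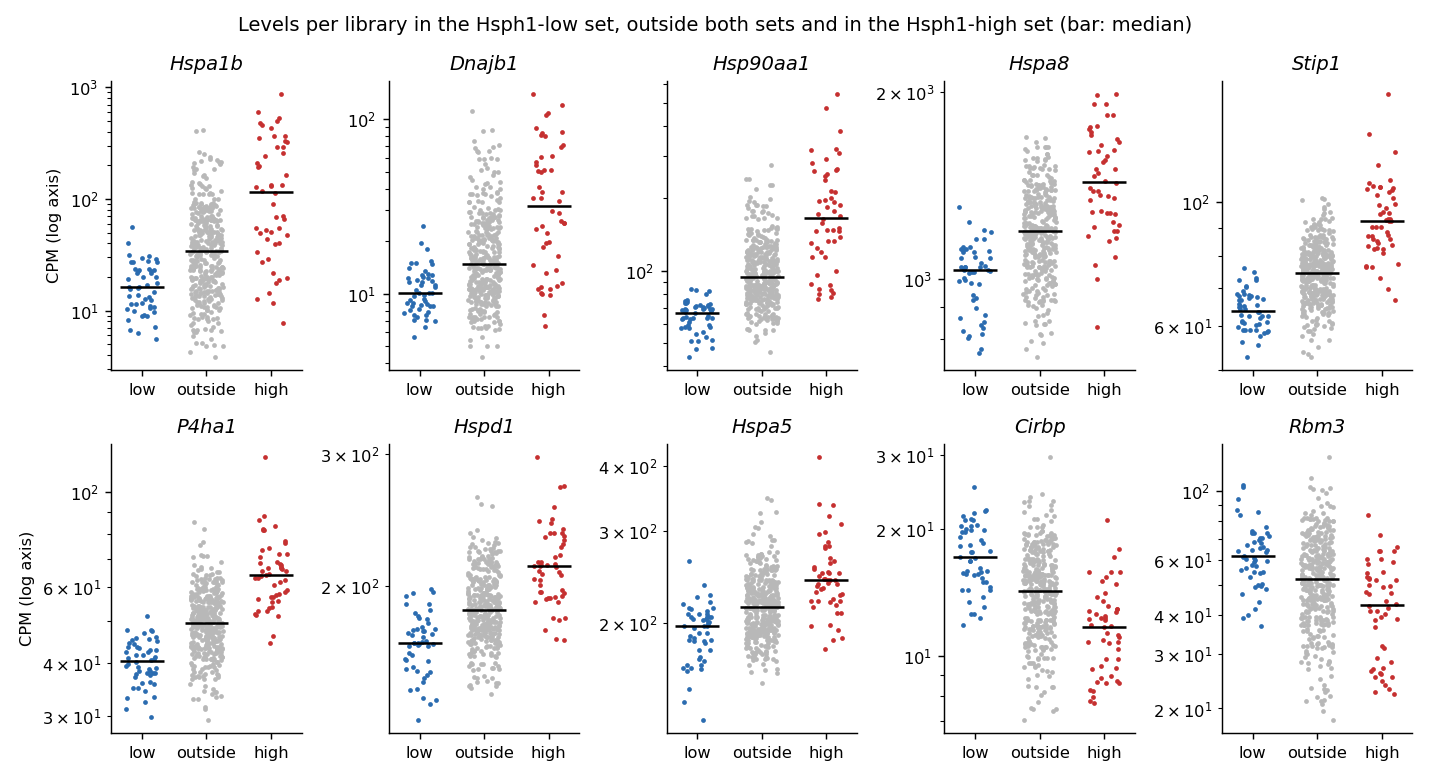
Each point is the level of 1 gene in 1 library in CPM (vertical log axis, which differs between panels), in the 50 Hsph1-low libraries (blue), the libraries outside both sets (grey) and the 50 Hsph1-high libraries (red), with a bar at the median. The red points of Hspa1b spread from 7.75 to 869 CPM while the blue ones end at 55.6, and Cirbp and Rbm3 lie lower in red than in blue.

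The J-domain proteins, which hand clients to Hsp70 and start its ATP cycle, moved unevenly. Dnajb1, the partner of inducible Hsp70 and the other marker named for these animals, ranged from 5.61 to 24.4 CPM in the low set, with a median of 10.1, and from 6.53 to 138.95 CPM in the high set, with a median of 31.8, and 31 high libraries exceeded the low set (log2 difference 1.77 ± 0.16, adjusted p = 5.9e-16). Dnaja1, which serves Hspa8, ranged from 27.1 to 64.3 CPM in the low set, with a median of 48.9, and from 34.5 to 208.8 CPM in the high set, with a median of 95.01, with 41 high libraries above the low set (log2 difference 0.94 ± 0.075, adjusted p = 3.5e-18). Dnajb4 and Dnajb2 rose by log2 differences of 0.42 ± 0.068 (adjusted p = 2.1e-06) and 0.32 ± 0.038 (adjusted p = 2.1e-10), and Dnaja4 by 0.25 ± 0.063 (adjusted p = 0.0031). Dnajc7 fell by 0.12 on the log2 scale (adjusted p = 0.0013). The other 9 of 15 tested members, among them Dnajb6 (0.026 ± 0.027, adjusted p = 0.62) and Dnaja2 (0.05 ± 0.028, adjusted p = 0.25), did not pass. The list thus held 5 higher and 1 lower, beside 6.49% and 5.89% of all tested genes, with a median of 0.05.

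Ranking by Hsph1 and ranking by Dnajb1 chose only partly the same animals. The scores of both genes correlated over all libraries after group means were removed (Pearson r = 0.579). Of the 50 high libraries, 19 were also among the 5 highest Dnajb1 scores of their group and 2 were among the 5 lowest. Of the 50 low libraries 11 were among the 5 lowest for Dnajb1 and none among the 5 highest. The spread of Dnajb1 was wide within the high set, with an SD of 1.19 on the log2 CPM scale against 0.43 in the low set, and for Hspa1b these were 1.77 and 0.74. In 27 high libraries Dnajb1, Hspa1a and Hspa1b all lay above every low library, and in 15 none of the 3 did. Of these 27 libraries 19 were male and of the 15 libraries 2 were male, a split that was noticed in the data and not tested. Sets ranked by Dnajb1 instead gave 1317 called genes, which is 7.10% of those tested. They held 520 (22.7%) of the 2294. Of the named genes called by Hsph1 rank 22 lost their call in these sets without changing sign and 4 changed sign and lost it. The 22 were Hspa4, Cryab, Hsf1, Mup10, 1700001O22Rik, Lep, Nnat, Mest, Fam184b, 5930430L01Rik, Plet1os, Zfp956, Aldh18a1, Mthfd2, Psmd8, Per3, Prdx1, Hmox1, Zbtb16, Runx1, Flt1 and Rpl5. The 4 were Kcnh2, Gpi1, Pfkm and Lpl.

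**Figure D3:**
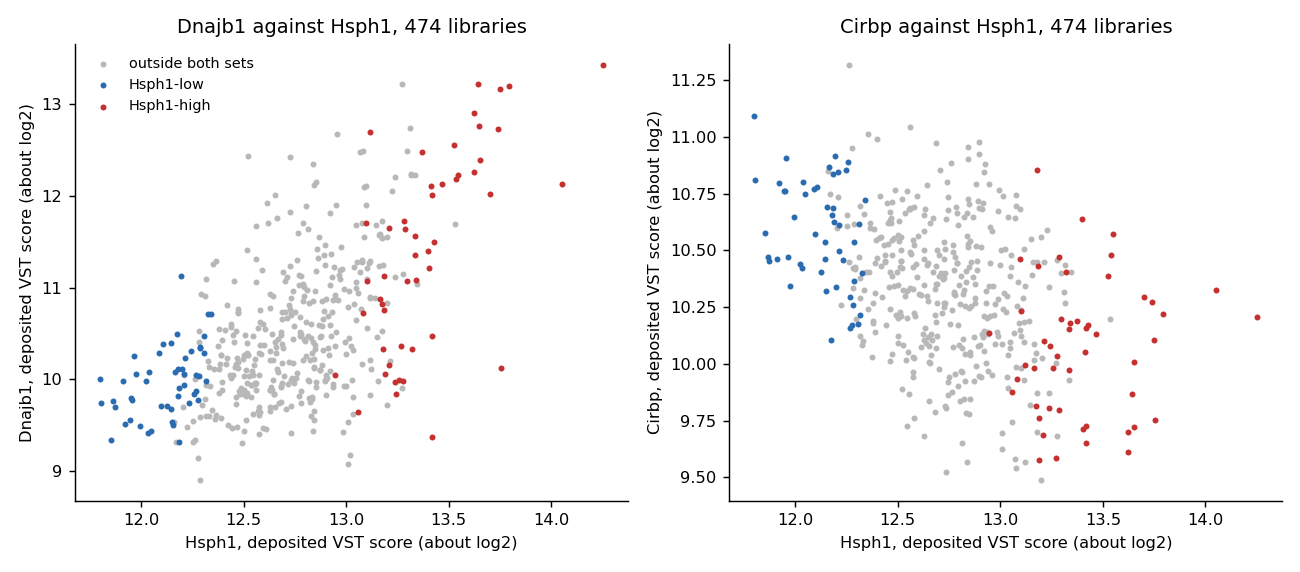
The deposited score of Dnajb1 (left) and of Cirbp (right) is plotted against that of Hsph1 for every library, both axes in units of about log2, with the high set in red, the low set in blue and the rest in grey. Dnajb1 fans out at high Hsph1, from 9.37 to 13.4 within the red points, and Cirbp falls as Hsph1 rises.

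Hsp90 and the proteins that steer its cycle were mostly higher, with 12 of 17 members called higher and 0 lower, beside 6.49% and 5.89% over all tested genes, and a median log2 difference of 0.30. Hsp90aa1, the inducible Hsp90, ranged from 43.7 to 83.8 CPM in the low set, with a median of 66.9, and from 76.5 to 542.1 CPM in the high set, with a median of 166.2, with 45 high libraries above the low set (log2 difference 1.47 ± 0.096, adjusted p = 2.6e-23). Its constitutive counterpart Hsp90ab1 ranged from 858.2 to 1358 CPM in the low set, with a median of 1105, and from 1081 to 1617 CPM in the high set, with a median of 1338 (log2 difference 0.29 ± 0.03, adjusted p = 4.3e-13). The inducible gene thus showed the larger difference of the pair. Stip1, the adaptor that passes clients from Hsp70 to Hsp90, ranged from 52.8 to 76.1 CPM in the low set, with a median of 63.8, and from 66.8 to 156.2 CPM in the high set, with a median of 92.4 (log2 difference 0.55 ± 0.036, adjusted p = 2.2e-23). Only 3 high libraries fell within the range of the low set. Ahsa1, which stimulates the Hsp90 ATPase, ranged from 51.2 to 68.8 CPM in the low set, with a median of 58.9, and from 61.5 to 97.5 CPM in the high set, with a median of 76.4 (log2 difference 0.39 ± 0.025, adjusted p = 2.2e-23).

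Further members followed with smaller values. Chordc1, an Hsp90 partner whose promoter window holds the longest run of heat shock units shown above, had medians of 33.2 CPM in the low set and 45.3 CPM in the high set (log2 difference 0.48 ± 0.036, adjusted p = 1.6e-19). Ahsa2 differed by 0.55 ± 0.038 (adjusted p = 5.2e-22), Cacybp by 0.37 ± 0.034 (adjusted p = 2.1e-15), the co-chaperone p23 gene Ptges3 by 0.35 ± 0.043 (adjusted p = 3.3e-10) and the cyclophilin gene Ppid by 0.32 ± 0.03 (adjusted p = 7e-15). Unc45b, the chaperone that folds the myosin head in muscle, had medians of 210.7 CPM in the low set and 250.1 CPM in the high set (log2 difference 0.30 ± 0.045, adjusted p = 4.6e-07). Fkbp4 (0.22 ± 0.03, adjusted p = 5.9e-08) and Ppp5c (0.071 ± 0.023, adjusted p = 0.032) completed the rise. The kinase adaptor Cdc37 (-0.046 ± 0.043, adjusted p = 0.57), Sugt1, Tomm34, Unc45a and Aarsd1 did not pass.

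Among other Hsp70 partners 2 of 9 were higher and 0 lower (median 0.043), beside 6.49% higher and 5.89% lower of all tested genes. Bag3, which links Hsp70 to small heat shock proteins and to the autophagic removal of damaged filament proteins, ranged from 90.8 to 170.6 CPM in the low set, with a median of 116.3, and from 95.1 to 332.99 CPM in the high set, with a median of 154.7 (log2 difference 0.44 ± 0.051, adjusted p = 7e-11). St13, which stabilises Hsp70 bound to its client, had medians of 72.7 CPM in the low set and 90.2 CPM in the high set (log2 difference 0.31 ± 0.031, adjusted p = 4.3e-13). Bag1, Bag2, Bag4, Bag5, Bag6, Hspbp1 and the ubiquitin ligase gene Stub1 did not pass, and their differences lay between -0.069 and 0.12.

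Small heat shock proteins, which hold unfolded clients without ATP, gave 3 higher and 1 lower of 7 (median 0.086), beside 6.49% and 5.89% over all tested genes. Hspb1 ranged from 23.95 to 112.98 CPM in the low set, with a median of 69.6, and from 48.4 to 316.5 CPM in the high set, with a median of 111.95, and 24 high libraries exceeded the low set (log2 difference 0.77 ± 0.093, adjusted p = 3.3e-10). Hspb8, the partner of Bag3, had medians of 196.7 CPM in the low set and 230.8 CPM in the high set (log2 difference 0.27 ± 0.042, adjusted p = 1.1e-06). Cryab, the alpha B-crystallin that guards desmin, had medians of 318.2 CPM in the low set and 408.5 CPM in the high set (log2 difference 0.33 ± 0.068, adjusted p = 0.00023), with wide overlap and a call that was lost with ranking by Dnajb1 (0.13, adjusted p = 0.23). Hspb3 was lower (-0.19 ± 0.051, adjusted p = 0.0078), while Hspb2, Hspb6 and Hspb7 did not pass. Cryab overlaps Hspb2 on the opposite strand, and any use of strand in the authors' counting is not given in the sources used here.

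The RNAs of the heat shock transcription factors differed little in size between the sets. Hsf1 had medians of 23.9 CPM in the low set and 25.6 CPM in the high set (log2 difference 0.11 ± 0.032, adjusted p = 0.011), and this call was lost with scaling by the total count alone (adjusted p = 0.066) and with ranking by Dnajb1 (adjusted p = 0.17). Its adjusted p reached 0.17 at most over 25 alternatives. Hsf2 (-0.033 ± 0.039, adjusted p = 0.67), Hsf4 (-0.06 ± 0.059, adjusted p = 0.59) and the Hsf1-binding Hsbp1 (0.056 ± 0.025, adjusted p = 0.13) did not pass. Hsf1 is known to be controlled mainly at the protein level, which RNA does not show.

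The cytosolic chaperonin TRiC, a double ring that folds actin and tubulin, rose in 7 of 8 subunits with none lower (median 0.13). Of all tested genes 6.49% were higher. Cct3 had the largest difference, with medians of 50.1 CPM in the low set and 61.1 CPM in the high set (log2 difference 0.27 ± 0.023, adjusted p = 9.6e-17), and 37 high libraries lay above the low set. Cct6a followed (0.23 ± 0.026, adjusted p = 5.6e-11), while the difference of Tcp1 was 0.021 ± 0.019 (adjusted p = 0.53). Prefoldin, which delivers chains to TRiC, had 0 of 6 subunits called by edgeR, limma or DESeq2, 0 of them at an unadjusted p under 0.05, and its median was -0.008.

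In mitochondria 3 of 10 chaperone and protease genes were higher and none lower (median 0.037), beside 6.49% of all tested genes higher. Hspd1 and Hspe1 form the Hsp60 and Hsp10 folding chamber and share the stretch with heat shock units shown above. Hspd1 ranged from 132.7 to 198.1 CPM in the low set, with a median of 168.05, and from 169.5 to 297.5 CPM in the high set, with a median of 212.5 (log2 difference 0.35 ± 0.031, adjusted p = 5.9e-16). Hspe1 had medians of 35.1 CPM in the low set and 43.3 CPM in the high set (log2 difference 0.35 ± 0.038, adjusted p = 7.9e-12), a difference of about the same size as that of Hspd1. Hspa9, the mitochondrial Hsp70, differed by 0.096 ± 0.027 (adjusted p = 0.011), and Lonp1, Clpp, Clpx, Trap1, Dnaja3, Grpel1 and Grpel2 did not pass.

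The chaperones of the endoplasmic reticulum were higher too. Of 20 tested genes of this compartment and its unfolded protein response 18 were higher and 0 lower, beside 6.49% and 5.89% of all tested genes, with a median of 0.21. Hspa5, the Hsp70 of the reticulum known as BiP, ranged from 130.5 to 262.6 CPM in the low set, with a median of 197.1, and from 178.6 to 415.8 CPM in the high set, with a median of 241.7 (log2 difference 0.36 ± 0.042, adjusted p = 1.2e-10). Hsp90b1, its Hsp90, had medians of 137.2 CPM in the low set and 170.9 CPM in the high set (log2 difference 0.33 ± 0.035, adjusted p = 3.3e-12), and the lectin chaperone Calr had medians of 130.3 CPM in the low set and 149.7 CPM in the high set (log2 difference 0.22 ± 0.021, adjusted p = 7.9e-14). Sdf2l1 (0.67 ± 0.086, adjusted p = 2.6e-09), Manf (0.48 ± 0.052, adjusted p = 4.8e-12) and Creld2 (0.40 ± 0.048, adjusted p = 2.9e-10) showed the largest log2 differences of the list. Xbp1, the transcription factor of the response, differed by 0.13 ± 0.045 (adjusted p = 0.044). Ddit3, the CHOP gene of terminal stress, did not pass (0.08 ± 0.048, adjusted p = 0.3), nor did Sel1l.

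P4ha1, a catalytic subunit of collagen prolyl 4-hydroxylase, ranged from 29.8 to 51.5 CPM in the low set, with a median of 40.4, and from 44.6 to 120.95 CPM in the high set, with a median of 64.2 (log2 difference 0.71 ± 0.045, adjusted p = 8.5e-24), which was the smallest adjusted p of all genes. P4ha2 differed by 0.45 ± 0.042 (adjusted p = 7e-15). Serpinh1, the collagen chaperone Hsp47 and a known heat shock gene, ranged from 22.4 to 55.5 CPM in the low set, with a median of 42.3, and from 43.4 to 132.01 CPM in the high set, with a median of 67.1 (log2 difference 0.71 ± 0.065, adjusted p = 2.4e-15), with 39 high libraries above the low set. Of the 8 tested fibroblast and collagen genes none was called by edgeR, limma or DESeq2, 1 having an unadjusted p under 0.05 (median -0.014), and Col1a1 (-0.071 ± 0.12, adjusted p = 0.78) and Col3a1 (0.02 ± 0.081, adjusted p = 0.92) lay near 0. P4ha2 and Serpinh1 were picked after their values were seen.

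**Figure D4:**
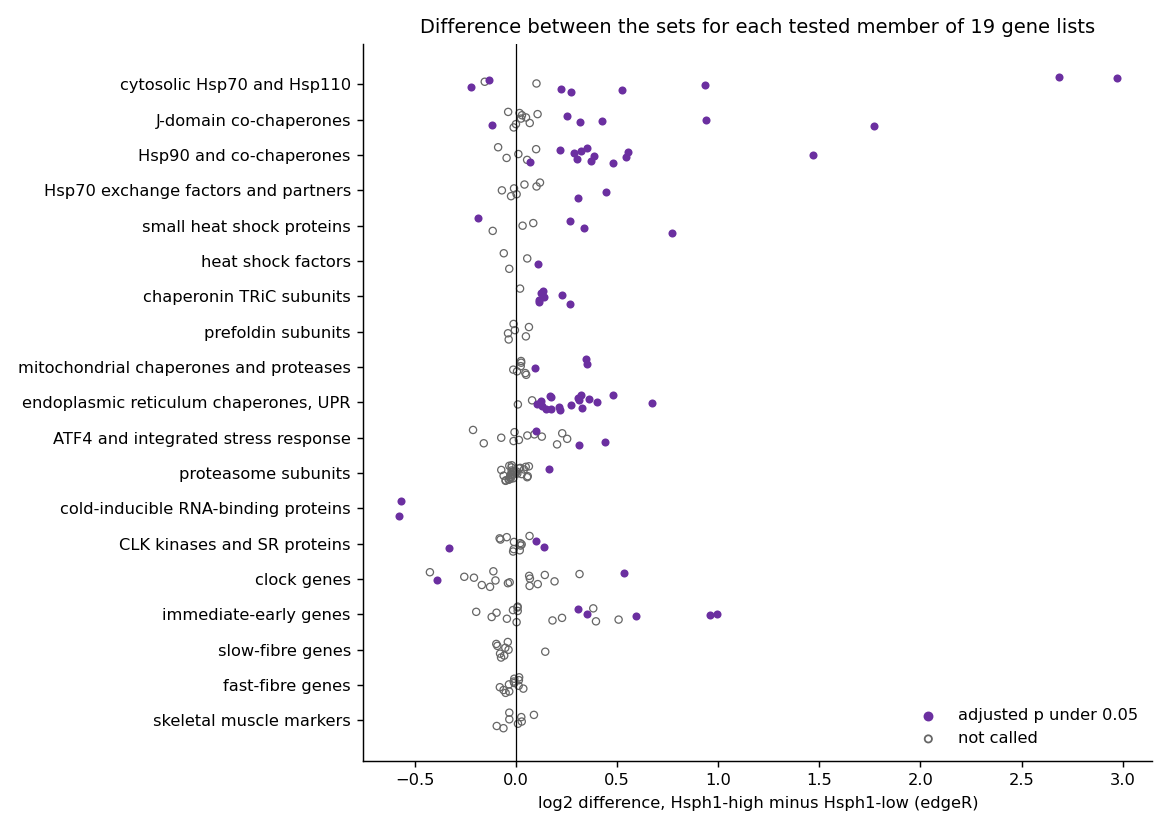
Each point is a tested gene, placed by its log2 difference between the Hsph1-high and Hsph1-low sets (horizontal axis) in 1 of 19 gene lists (rows), filled where the adjusted p is under 0.05. Most filled points lie to the right in the chaperone lists and in the endoplasmic reticulum list, both cold-inducible genes lie near -0.57, and the fibre and muscle lists have no filled point.

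Lists of other stress programs are read against the 12.4% of all tested genes that were called, 6.49% higher and 5.89% lower. The integrated stress response driven by Atf4, which raises amino acid synthesis, had 3 higher and 0 lower of 15 (median 0.092), namely Aldh18a1 (0.44 ± 0.13, adjusted p = 0.014), Mthfd2 (0.31 ± 0.079, adjusted p = 0.0032) and Atf4 itself (0.099 ± 0.031, adjusted p = 0.024). The call for Aldh18a1 held in 21 of 25 alternatives, and that for Mthfd2 was lost with ranking by Dnajb1 (0.077, adjusted p = 0.67). Proteasome subunits had 1 of 31 higher (Psmd8, 0.16 ± 0.054, adjusted p = 0.033) and a median of -0.017, a share below that over all tested genes. The call for Psmd8 held in 12 of 25 alternatives.

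Antioxidant genes under Nrf2 had 4 higher and 1 lower of 14 (median 0.081), beside 6.49% higher and 5.89% lower of all tested genes. Hmox1, the haem oxygenase that is also a known heat shock target, had medians of 3.80 CPM in the low set and 4.67 CPM in the high set (log2 difference 0.31 ± 0.063, adjusted p = 0.0003), and Osgin1, Gclm and Prdx1 were higher by log2 differences of 0.34, 0.22 and 0.14, whereas Nqo1 was lower (-0.21 ± 0.066, adjusted p = 0.026). Glucocorticoid and metallothionein genes had 1 of 10 higher (Zbtb16, 0.28 ± 0.07, adjusted p = 0.0028, median 0.18), and Fkbp5 (0.21 ± 0.12, adjusted p = 0.29) and Tsc22d3 (0.17 ± 0.075, adjusted p = 0.14) did not pass.

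Immediate-early genes, the first to answer contraction and growth signals, had 5 higher and 0 lower of 19 (median 0.18), beside 6.49% of all tested genes higher. Nr4a3, an orphan nuclear receptor known to rise with exercise, ranged from 10.1 to 84.7 CPM in the low set, with a median of 38.03, and from 11.7 to 221.5 CPM in the high set, with a median of 65.8 (log2 difference 0.99 ± 0.16, adjusted p = 1.7e-06). Nr4a2 had medians of 3.78 CPM in the low set and 7.39 CPM in the high set (log2 difference 0.96 ± 0.20, adjusted p = 0.00046). Atf3 (0.59 ± 0.17, adjusted p = 0.009), Fosl2 (0.35 ± 0.10, adjusted p = 0.012) and Jun (0.31 ± 0.081, adjusted p = 0.0048) completed the calls, with wide overlap of the sets. Fos (0.51 ± 0.23, adjusted p = 0.14), Junb (0.38 ± 0.15, adjusted p = 0.073) and Egr1 (0.0092 ± 0.20, adjusted p = 0.99) did not pass.

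The genes that fell included both cold-inducible RNA-binding proteins. Cirbp, which binds RNA and rises when cells are cooled mildly, ranged from 11.9 to 25.2 CPM in the low set, with a median of 17.1, and from 7.69 to 21.02 CPM in the high set, with a median of 11.7, and 27 of 50 high libraries lay below every low library (log2 difference -0.57 ± 0.054, adjusted p = 1.1e-14). Rbm3, its relative, ranged from 36.7 to 104.4 CPM in the low set, with a median of 61.7, and from 22.2 to 83.4 CPM in the high set, with a median of 42.9, with 17 high libraries below the low set (log2 difference -0.58 ± 0.06, adjusted p = 1.1e-12). Both were lower in 10 of 10 groups. Over 25 alternatives both stayed called, but the log2 difference shrank to as little as -0.22 for Cirbp and -0.23 for Rbm3. The adjusted p reached 0.020 and 0.030 at most. In females Rbm3 differed by -0.81 and in males by -0.34, and the interaction with sex did not pass (adjusted p = 0.073).

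Splicing regulators of the SR family and the CLK kinases that phosphorylate them gave 2 higher and 1 lower of 14 (median 0.005), beside 12.4% of all tested genes called. Srsf5 ranged from 99.5 to 163.8 CPM in the low set, with a median of 124.7, and from 74.7 to 136.2 CPM in the high set, with a median of 101.2, and 22 high libraries lay below the low set (log2 difference -0.33 ± 0.035, adjusted p = 4.2e-12). Srsf7 (0.14 ± 0.033, adjusted p = 0.0017) and Clk3 (0.10 ± 0.033, adjusted p = 0.028) were higher. The call for Srsf7 held in 23 of 25 alternatives. In 19 genes at least 15 high libraries lay below every low library. Apart from Cirbp, Rbm3 and Srsf5 they included Uri1, which encodes an unconventional prefoldin (25 libraries, log2 difference -0.41 ± 0.057, adjusted p = 5.8e-08), and the zinc finger gene Zfp784 (19 libraries, log2 difference -0.51 ± 0.061, adjusted p = 3e-10), both named after their values were seen.

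The 12 largest falls that met the naming rule (mean of at least 1 CPM and the same direction in at least 9 groups) were led by Lep, the adipocyte hormone leptin, which ranged from 0.120 to 54.8 CPM in the low set, with a median of 10.4, and from 0.0588 to 43.2 CPM in the high set, with a median of 4.61 (log2 difference -1.29 ± 0.30, adjusted p = 0.0014). Nnat (-0.93 ± 0.23, adjusted p = 0.0027) and Mest (-0.70 ± 0.15, adjusted p = 0.00051), both imprinted genes, were among them, with medians of 8.64 CPM in the low set and 4.14 CPM in the high set for Nnat and 3.51 CPM in the low set and 2.48 CPM in the high set for Mest. The rest were Gm11266 (-0.77), Fam184b (-0.71), 5930430L01Rik (-0.69), Plet1os (-0.65), Npr3 (-0.58), a clearance receptor for natriuretic peptides, Kcnh2 (-0.57), a potassium channel, Zfp956 (-0.57), Rbm3 and Cirbp. With ranking by Dnajb1 the calls for Lep (-0.43, adjusted p = 0.43), Nnat (-0.26, adjusted p = 0.59) and Mest (-0.16, adjusted p = 0.53) were lost. That for Nnat was also lost with 3 and 3 libraries per group (adjusted p = 0.080). The call for Plet1os held in 18 of 25 alternatives. Fam184b (means of 1.61 and 0.978 CPM in the low and high set) reached the mean of 1 CPM only through the low set. Its place in this order is a description. Gm11266 and Plet1os are antisense genes whose reads cannot be told from those of their partners without strand. In Cirbp and Rbm3 27 and 17 high libraries lay below every low library, as given above.

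Among the 12 largest rises by the same rule, 6 were the chaperone genes Hspa1b, Hspa1a, Dnajb1, Hsp90aa1, Dnaja1 and Hspa4l. Mup10, a member of a family of near-identical major urinary protein genes made mainly in liver, was listed first (log2 difference 3.42 ± 0.65, adjusted p = 7.8e-05), but its median was 0 CPM in the low set and 0.166 CPM in the high set, and 7 high libraries lay above the low maximum of 4.22 CPM. With females alone the edgeR difference of Mup10 was 4.62 (adjusted p = 0.00023), and with males alone it had no test. How reads were shared within the family is uncertain and was not tested. Nr4a3 is given above. Gm15542 (1.28 ± 0.18, adjusted p = 3e-08), a processed pseudogene inside Psmd13, 1700001O22Rik (1.05 ± 0.18, adjusted p = 1.4e-05), Unc45bos (1.64 ± 0.19, adjusted p = 8e-11), which lies antisense to Unc45b and had medians of 0.509 and 1.33 CPM in the low and high set, and Nle1 (1.01 ± 0.11, adjusted p = 1.4e-11), a factor of large ribosomal subunit assembly, completed the 12. Mup10 (means of 0.245 and 3.92 CPM) and Unc45bos (0.525 and 1.82 CPM) reached the mean of 1 CPM of the naming rule only through the high set, so that their place in this order is a description.

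Genes of the contractile apparatus passed no test in the main fit. Among the alternatives, the desmin gene Des was called in 5 of 25 and the slow-fibre gene Atp2a2 in 1 of 25. None of 9 slow-fibre genes, 12 fast-fibre genes and 8 general muscle markers was called by edgeR, limma or DESeq2 (0, 0 and 1 at an unadjusted edgeR p under 0.05), with medians of -0.058, -0.0093 and -0.011. The summed muscle markers, which include Acta1, Ckm and Ttn, ranged from 73528 to 111702 CPM in the low set, with a median of 90818, and from 67660.3 to 116705 CPM in the high set, with a median of 90672, as the tissue label implies. Desmin, the client of Cryab, had medians of 2439.6 CPM in the low set and 2313 CPM in the high set (log2 difference -0.094 ± 0.036, adjusted p = 0.069), and titin had medians of 29179.6 CPM in the low set and 29928 CPM in the high set (log2 difference 0.089 ± 0.052, adjusted p = 0.29). Glycolysis enzymes had 0 higher and 2 lower of 11 (median -0.049), beside 5.89% of all tested genes lower, in calls that held in 16 and 15 of 25 alternatives, namely Gpi1 (-0.096 ± 0.033, adjusted p = 0.043) and Pfkm (-0.09 ± 0.032, adjusted p = 0.046), and none of 18 tricarboxylic acid cycle enzymes (median -0.02) and 13 mitochondrially encoded genes (median -0.08) was called by any of the 3 tools (4 and 2 at an unadjusted p under 0.05).

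Atrophy and autophagy genes gave 0 calls of 12 with edgeR, limma or DESeq2, 2 of them at an unadjusted p under 0.05 (median 0.1), and the ubiquitin ligase Fbxo32 varied widely, with medians of 479.5 CPM in the low set and 593.9 CPM in the high set (log2 difference 0.29 ± 0.12, adjusted p = 0.11). Genes of denervation and the neuromuscular junction had 3 higher and 1 lower of 12 (median 0.00067), beside 12.4% of all tested genes called. Myog, the myogenic factor that rises on denervation, ranged from 1.71 to 25.9 CPM in the low set, with a median of 7.15, and from 2.35 to 61.2 CPM in the high set, with a median of 14.9 (log2 difference 0.93 ± 0.16, adjusted p = 1.5e-05). Runx1 (0.40 ± 0.099, adjusted p = 0.0026) and Musk (0.40 ± 0.11, adjusted p = 0.0089) were higher and Chrne (-0.28 ± 0.075, adjusted p = 0.0062), the adult acetylcholine receptor subunit, was lower, while the embryonic subunit Chrng (-0.037 ± 0.33, adjusted p = 0.97) and Chrna1 (-0.092 ± 0.06, adjusted p = 0.35) did not pass.

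Clock genes had 1 higher and 1 lower of 18 (median -0.035), a share near the 12.4% called over all tested genes and so no result about the list. Nfil3 had medians of 43.5 CPM in the low set and 74.9 CPM in the high set (log2 difference 0.54 ± 0.11, adjusted p = 0.00031) and Per3 of 14.8 CPM in the low set and 11.3 CPM in the high set (log2 difference -0.39 ± 0.12, adjusted p = 0.019), whereas Dbp (-0.42 ± 0.25, adjusted p = 0.29) and Arntl (0.14 ± 0.11, adjusted p = 0.43) did not pass. Of 68 cytosolic ribosomal protein genes Rpl5 alone was called (-0.40 ± 0.14, adjusted p = 0.043), with a list median of -0.0052, and its call held in 11 of 25 alternatives.

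Markers of other cells of the tissue were set beside these results, to be read against the 12.4% of all tested genes that were called, 6.49% higher and 5.89% lower. Adipocyte genes had 1 higher (Lpl, 0.21 ± 0.065, adjusted p = 0.023) and 1 lower (Lep) of 9, and their summed level ranged from 522.4 to 1745 CPM in the low set, with a median of 922.2, and from 700.6 to 1871 CPM in the high set, with a median of 1029.8. Adipoq (-0.13 ± 0.20, adjusted p = 0.75) and Plin1 (-0.19 ± 0.21, adjusted p = 0.63), which define adipocytes better than Lpl, did not pass, and the call for Lpl held in 19 of 25 alternatives. Endothelial genes had 1 of 7 higher (Flt1, 0.15 ± 0.041, adjusted p = 0.0072), with a summed level from 260.4 to 392.6 CPM in the low set, with a median of 309.4, and from 244.7 to 526.7 CPM in the high set, with a median of 319.9. Satellite cell genes had 1 of 6 lower (Pax7, -0.41 ± 0.11, adjusted p = 0.0042), with a summed level from 29.7 to 62.4 CPM in the low set, with a median of 42.2, and from 25.3 to 80.9 CPM in the high set, with a median of 44.3. No macrophage (10), lymphocyte (6), erythroid (6) or Schwann cell gene (6) was called by edgeR or limma, and DESeq2 called 1 macrophage gene. At an unadjusted edgeR p under 0.05 these lists held 3, 0, 0 and 3 genes, and their medians were 0.11, 0.07, 0.20 and -0.17. With scores of cell types and fibre types as covariates 2201 genes were called, of which 1907 were among the 2294.

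The libraries outside both sets were not used in that comparison and gave a separate measure of the same relation. In them the log2 level of each gene was fitted against the Hsph1 score within groups, and 1545 of 18803 genes (8.22%) were called, 822 rising and 723 falling with Hsph1. Without the libraries of doubtful sex label 1525 were called. Among 2293 genes called between the sets and tested here, 833 (36.3%) were called here as well, all with the same sign, and these made up 54.1% of those genes called here that were also tested between the sets. The sign was shared by 94.8% of the genes called between the sets and by 70.6% of all genes tested in both. Both fits relate genes to the same Hsph1 measurement, but no library is in both.

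Chaperone RNAs rose with Hsph1 in these libraries too. Per unit of Hsph1 score, the log2 level of Hspa1b rose by 2.24 ± 0.21 (adjusted p = 4.2e-20), that of Dnajb1 by 1.44 ± 0.14 (adjusted p = 5.7e-18) and that of Hsp90aa1 by 1.11 ± 0.067 (adjusted p = 1.1e-42), which was the smallest adjusted p of these. Slopes of 0.43 ± 0.029 (adjusted p = 2.3e-36) for Stip1, 0.58 ± 0.043 (adjusted p = 9.4e-31) for P4ha1 and 0.41 ± 0.044 (adjusted p = 7.7e-16) for Hspa8 followed. Cirbp and Rbm3 had slopes of -0.43 ± 0.058 (adjusted p = 4.6e-10) and -0.40 ± 0.084 (adjusted p = 0.00035). Of the endoplasmic reticulum list 13 of 20 rose, of the Hsp90 list 11 of 17, and of the TRiC list 5 of 8, with none falling. Hspb8 (0.10 ± 0.045, adjusted p = 0.15), Nr4a3 (0.26 ± 0.20, adjusted p = 0.46), Runx1 (0.085 ± 0.11, adjusted p = 0.71) and Hsf1 (0.023 ± 0.041, adjusted p = 0.8), called between the sets, did not pass here. Of the immediate-early list 1 of 19 rose and 1 fell, and Atf3, Fosl2 and Jun had adjusted p-values of 0.54, 0.52 and 0.59. The ATF4 list had 0 rising and 3 falling of 15, and the clock list 2 rising and 4 falling of 18, beside 8.22% of all genes called in this fit, among them Dbp (-0.82 ± 0.24, adjusted p = 0.017).

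**Figure D5:**
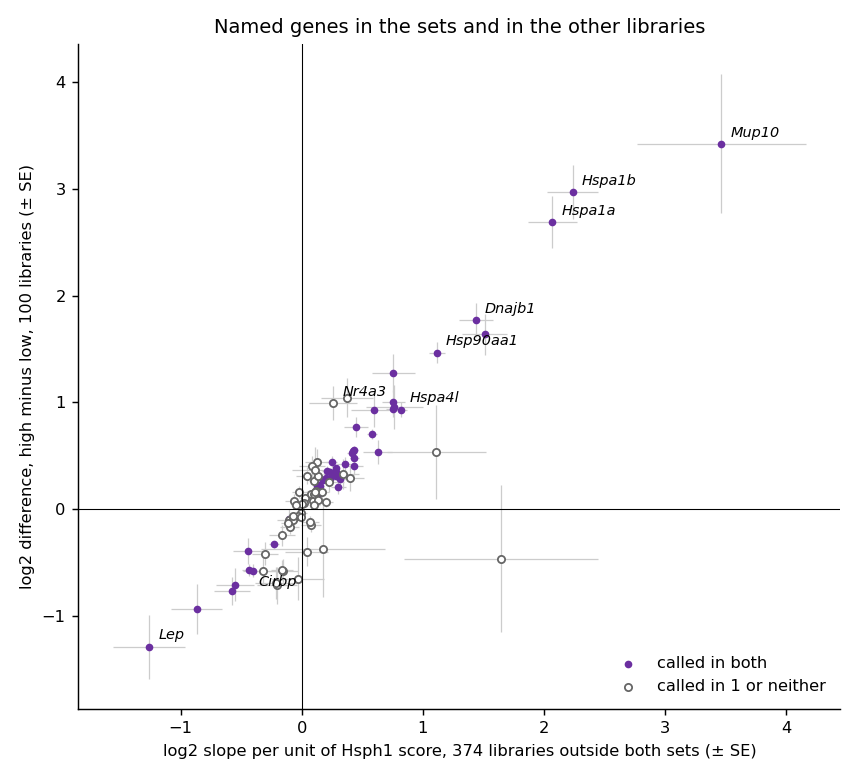
For each named gene the log2 difference between the sets (vertical axis) is plotted against the log2 slope per unit of Hsph1 score in the libraries outside both sets (horizontal axis), each with its SE, and genes called in both fits are filled. Hspa1b and Hspa1a lie far to the upper right and Lep, with a slope of -1.26, at the lower left.

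The direction of the leading genes held in both sexes. The difference of Hspa1b was 2.28 in females and 3.65 in males, that of Dnajb1 1.37 and 2.18, that of Hsp90aa1 1.14 and 1.80 and that of Hspa8 0.50 and 0.55. The sex-by-set interaction did not pass for any of them (adjusted p = 0.4, 0.46, 0.21 and 0.95). With males alone 7.02% of the tested genes were called and with females alone 2.37%, and this gap was not tested. Both shares include the libraries of doubtful sex label. The sets also lay further apart in Hsph1 in males. Over all genes 3 (0.0162%) had an interaction with sex and 1 (0.0054%) with generation in edgeR, against 0 and 0 in limma, and without the libraries of doubtful sex label edgeR had 0 and 1. At an unadjusted p under 0.05 edgeR had 1356 and 895 genes and limma 1433 and 954. Fits within each of the 5 stretches of library numbers alone had sex but not generation as a covariate. They called 15, 13, 87, 42 and 66 genes. In these fits Hspa1b, Dnajb1, Hsp90aa1, Stip1, P4ha1, Hspa8, Cirbp and Rbm3 kept their direction in 5 of 5.

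The genes whose score followed that of Hsph1 most closely over all libraries, after group means were removed, were Hsp90aa1 (Pearson r = 0.787), Stip1 (0.783), Ahsa1 (0.754), P4ha1 (0.744), Hspa4l (0.740), Ahsa2 (0.727), Dnaja1 (0.693), Chordc1 (0.641), Trmt1l (0.622) and Cct3 (0.611). The lowest were Cirbp (-0.526), Iffo1 (-0.476), Srsf5 (-0.456), Zc3h6 (-0.444) and Rbm3 (-0.400). These values describe libraries that include both sets and share depth and normalisation, and they carry no test. Of the 10 closest, Trmt1l, a relative of tRNA methyltransferases, and P4ha1 are no members of the folding lists.

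The heat shock units shown above were counted in the promoter windows of the called genes. Of the 35 cytosolic folding genes (prefoldin not counted) that were higher in the high set, 28 had a promoter window, and 46.4% of these held a 2-unit match. The share was 22.2% in 27 other tested members of the same lists and 14.2% in 12574 tested genes with a window. A 3-unit match was in 1 of these 28 genes (3.57%) and in 1 of the 27 other members (3.70%), so it did not separate them. Over all called genes it was 17.1% of 889 that were higher and 12.1% of 812 that were lower, and 3-unit matches were in 9 and 3 of them. Dnajb1 rose 3.41-fold without a match in its window, and Nnat, which was lower, holds a 3-unit match. Hsp90aa1, Hspa8, Hsp90ab1 and Rbm3 had no entry in the table of windows.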

How the data were processed

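RNA of gastrocnemius muscle from 474 Diversity Outbred mice was sequenced as polyadenylated RNA, with 1 library per animal. The authors estimated counts with an allele-aware method on transcriptomes of 8 founder strains (build GRCm38) and deposited expected counts per gene, which were rounded to whole numbers here. The authors also deposited DESeq2 variance-stabilised scores, which were used to rank libraries and for the correlations. The versions of the counting software and of the authors' DESeq2, and any use of strand, are not given in the sources used here. Of 20612 genes in the table, all matched GENCODE M21 by identifier. The animals' wave, a covariate of the study, is not in the labels and was not fitted.

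Counts were scaled by TMM and tested with the edgeR (4.0.16) quasi-likelihood test with sex-by-generation group as covariate, after filterByExpr with a minimum count of 10. Benjamini-Hochberg adjustment ran over all 18526 tested genes except Hsph1. Slopes were fitted the same way in 374 libraries, and 2 further fits added the interaction of the set with sex or generation. Limma 3.58.1 on the scores, DESeq2 1.42.0, other scalings and covariates served as alternatives. Differences in depth and mitochondrial share were tested by 100000 permutations within groups. Libraries held 35.9 to 165.7 M counts (M stands for 1000000), and counting error matters most for genes under 1 CPM. The scripts were tested on simulated data.

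The genes named were the 12 largest called rises and falls (mean of at least 1 CPM, same direction in at least 9 of 10 groups), a fixed set of chaperone genes, the 2 members of each of 36 lists with the smallest p and the 10 genes closest to Hsph1. Other list members are named to account for a list's calls and, like genes outside the lists, were picked after their values were seen. The members and lists were chosen with earlier results of these data known. The results of 1 list are not reported here.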

Additional observations from a re-analysis of the deposited data

Results flagged for a closer look

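For 3 genes the sex-by-set interaction passed the edgeR test when the libraries of doubtful sex label were kept. Stt3b, a catalytic subunit of the oligosaccharyltransferase that attaches sugars to proteins in the endoplasmic reticulum, averaged 96.8 ± 9.47 CPM (SD, n = 25) in low and 98.7 ± 10.9 CPM in high females, against 106.1 ± 10.5 and 138.8 ± 25.4 CPM in males (adjusted p = 0.0214). This call was not made by limma on the scores (adjusted p = 0.0746) or without the libraries of doubtful sex label (adjusted p = 0.104).

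Gm21244 and Gm37158 (edgeR adjusted p = 0.00215 for each) were at 0 CPM in 24 of 25 low females and in 25 of 25 high females, and 1 low female library carried 2.15 and 9.21 CPM, close to the male medians of 2.04 and 9.47 CPM in the low set. The adjusted p was 0.903 and 0.889 with limma and 1 for both without the libraries of doubtful sex label.

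The difference between the sets varied with generation for Gm13339 (edgeR adjusted p = 0.0183, and 0.989 with limma). Its medians lay between 0.0406 and 0.182 CPM in every set and generation, and single libraries reached 842.6 CPM, so that rare animals carry the value. Without the libraries of doubtful sex label its adjusted p was 0.0161.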

How the results depend on the processing

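With 3 and 3 libraries per group 1448 genes were called and with ranking by Dnajb1 1317, against 2294. Under the latter, Kcnh2 (0.11, adjusted p = 0.66), Gpi1 (0.032, adjusted p = 0.62), Pfkm (0.048, adjusted p = 0.45) and Lpl (-0.11, adjusted p = 0.31) changed sign. The sex interaction went from 3 genes to 0 with limma and to 0 without the libraries of doubtful sex label (an alternative chosen after seeing the data), and the generation interaction from 1 to 0 with limma. The mitochondrial share differed by -0.80 percentage points between medians (permutation p = 0.0412). The cause was not tested. Leaving out each group in turn gave 1734 to 2255 calls. The 13 other alternatives for the sets gave between 2062 and 3202, and those for the slope between 1227 and 1576. With scaling by the total count alone 36.97% of the slope calls rose, against 53.2%. Of 67 named genes that were called, 40 stayed called in the same direction under every alternative run for them, which is 25 for all but Dnajb1 (24, since it cannot be tested where it ranks the libraries). No paired analysis was possible because each library is from a different animal and no number in the labels links a high library to a low one. Depth limits mainly genes far under 1 CPM, such as Fndc8 and Slfn5os.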

Other observations

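A stretch of chromosome 11 around the myosin chaperone gene Unc45b was singled out after its values were seen. Unc45b (GRCm38, chromosome 11, 82910550 to 82943403) was higher by 0.30 ± 0.05 on the log2 scale. Its neighbour Nle1 was higher by 1.01 ± 0.11, Fndc8, which overlaps Nle1 on the opposite strand, by 2.02 ± 0.28, Unc45bos, antisense within Unc45b, by 1.64 ± 0.19, and Slfn5os, which overlaps the end of Unc45b and most of Slfn5, by 1.41 ± 0.15. Slfn5 (0.036 ± 0.040, edgeR adjusted p = 0.64) and Rad51d (-0.064 ± 0.057, edgeR adjusted p = 0.53), at the edges of the stretch, did not pass. Fndc8 had a median of 0.151 CPM in the low set and 0.358 CPM in the high set, and Slfn5os of 0.226 and 0.464 CPM, so both levels were low. Without strand in the counting, overlapping and antisense reads cannot be told apart.

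Within 4 Mb of Hsph1 on chromosome 5, 58 genes were tested and 8 were called, beside 12.4% of all tested genes. They were Uspl1 (0.21 ± 0.03), Ubl3 (0.17 ± 0.04), Flt1 (0.15 ± 0.04), Pomp (0.14 ± 0.05), Polr1d (0.12 ± 0.03), N4bp2l2 (0.10 ± 0.03) and Cdk8 (0.098 ± 0.029), which were higher, and 5930430L01Rik (-0.69 ± 0.15), which was lower.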
